A study of Rattus norvegicus with 12 samples.

Results

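Hepatocytes take bile acids, hormones and drugs from the blood and pass them on into bile, and the genes described here encode the membrane proteins that do so. They comprise the organic anion transporting polypeptides (symbols starting with Slco), the bile acid carriers (Slc10a), the organic cation and anion carriers (Slc22a) and the ATP-binding cassette pumps of the B, C and G subfamilies (Abcb, Abcc, Abcg). Members were all probe sets whose single gene symbol in the platform annotation starts with one of these 6 stems, which gave 73 probe sets of 56 genes among the 14217 named genes on the array. The 56 genes were 13 Slco, 5 Slc10a, 16 Slc22a, 7 Abcb, 9 Abcc and 6 Abcg genes. A further 2 probe sets that carry several symbols of these families were left out. Where a gene had several probe sets, as 15 genes did, values are those of the brightest one on average unless another is named. For 33 of the 56 genes it had a mean above the median of all probe set means, 5.20 on the log2 scale. For 12 it lay below their lower quartile of 3.89, namely Abcc9, Abcg8, Slc10a2, Slc22a3, Slc22a12, Slc22a21, Slc22a25, Slco1a3, Slco1a5, Slco1a6, Slco1c1 and Slco6b1. Several of these genes have close paralogs (Abcb1a, the Slco1a genes, Slc22a21), and how far their probes also bind the paralog was not tested.

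The cells were primary hepatocytes of Wistar rats, freed from liver with collagenase, purified on a Percoll gradient and cultured from the next day with 250 U/ml rat interferon alpha or without it. The 4 groups were interferon alpha for 6 h, interferon alpha for 3 h, untreated culture at 6 h and untreated culture at 3 h, with 3 arrays each. The labels call the arrays biological replicates 1 to 3 but do not say whether each number is a separate animal, and they give no sex or age. P-values therefore measure the spread between these 12 samples, and the number of arrays limits the precision.

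At the sinusoidal membrane, which faces the blood, Slc10a1 brings in conjugated bile acids with sodium, the Slco proteins bring in organic anions without it, and Slc22a7 exchanges organic anions. At the canalicular membrane, which faces bile, Abcb11 pumps out bile salts, Abcc2 conjugates such as bilirubin glucuronide, Abcb4 phosphatidylcholine, Abcb1a and Abcg2 drugs, and Abcg5 with Abcg8 sterols. Abcc1, Abcc3, Abcc4 and Abcc6 sit on the side facing the blood and send substrates back into it. In liver, inflammation and cholestasis are known for lower uptake and for rerouting of export toward the blood.

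Of the 10 hepatocyte markers listed, 9 were measured and all 9 lay above the median of probe set means. Their summed linear signal was 109000 to 122000 in interferon alpha cultures and 112000 to 122000 in untreated ones. Macrophage markers (6 of 8 measured) summed to between 183 and 521 in interferon alpha cultures and between 163 and 555 in untreated ones, and endothelial markers to between 80.1 and 128 against between 84.1 and 142. Ductal markers, which include the member Slc10a2, summed to between 1830 and 3440 against between 1800 and 3360. Of the 6 measured, only Epcam lay above the median of probe set means, and it made up most of these sums. Stellate, lymphocyte and erythroid markers summed to at most 257, 85.6 and 296 on any array, and 0 of the markers were called in any comparison by either fit. Interferon alpha acted on these cells: Cxcl10, a chemokine gene, was higher in interferon alpha cultures than in untreated ones by 4.36 ± 0.52 log2 units at 6 h and 4.98 ± 0.52 at 3 h (SE, limma adjusted p = 0.00365 and 0.0372), and Mx1, an antiviral GTPase gene, by 4.33 ± 0.51 at 6 h (adjusted p = 0.00365). The size of the response differed by replicate number. At 3 h Isg15, another gene of this response, had 12.29, 13.15 and 12.89 (replicates 1 to 3) with interferon alpha, against 11.76, 10.71 and 10.90 without it. Replicate 1 thus had the narrowest gap, as it did for Cxcl10 and Mx1 at 3 h. For Cxcl10 at 6 h replicate 3 had the narrowest gap.

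No transporter gene was called for interferon alpha. At 6 h, 0 of the 73 member probe sets passed limma's adjusted p of 0.05, where 0.387% of all 31042 probe sets did, and 1 had an unadjusted p under 0.05, against 3.69% of all. At 3 h the members called were again 0, with 0.00644% of all probe sets called, and 3 members had an unadjusted p under 0.05, against 2.95% of all. For the difference between both times 0 members and 0.0% of all probe sets were called, with 1 member at an unadjusted p under 0.05 against 2.17% of all. Averaged over both times 0 members were called against 0.435% of all, and 2 had an unadjusted p under 0.05 against 4.48%. A second fit added the replicate number as a block, so that arrays of the same number were compared with each other. It called 0 members in all 4 of these comparisons as well, where it called 1.1% of all probe sets at 6 h, 0.0966% at 3 h, 0.0% for the difference and 1.1% for the average. The members with an unadjusted p under 0.05 were Abcg1 at 6 h, a probe set each of Slco1a3, Slc22a13 and Abcc9 at 3 h, Slc22a13 for the difference, and Slco1a3 and Abcc9 for the average. All but Abcg1 are named because of these values.

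The values of the best known carriers show how the cultures compared. Slc10a1, the sodium-dependent bile acid carrier, had 12.12, 11.66 and 12.02 (log2, replicates 1 to 3) with interferon alpha at 6 h, against 12.10, 12.02 and 12.19 without it. The ranges overlapped, and the difference was -0.17 with a 95% interval of -0.39 to 0.05 in the blocked fit. Abcb11, the bile salt export pump, had 11.78, 11.74 and 11.45 with interferon alpha at 6 h, against 11.72, 11.89 and 11.52 without it. These ranges overlapped too, with a difference of -0.05 and an interval of -0.22 to 0.11.

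Over the 6 uptake genes the difference between interferon alpha and untreated culture ran from -0.27 for Slco1a4, a carrier of organic anions, to 0.02 for Slc22a7 at 6 h, and from -0.06 to 0.00 at 3 h. In the blocked fit the lowest end of any of their 95% intervals was -0.58 at 6 h and -0.37 at 3 h. Over the 7 canalicular genes the difference ran from -0.13 for Abcc2 to 0.15 for Abcg8 at 6 h. At 3 h it ran from -0.15 for Abcb1a to 0.23 for Abcg5, and all intervals of the blocked fit lay between -0.34 and 0.47. The fit without the block gave wider intervals, for Abcb1a -0.76 to 0.58 at 6 h and -0.81 to 0.52 at 3 h. The median difference over all 56 genes was -0.04 at 6 h and -0.01 at 3 h, against -0.02 and -0.01 over all probe sets.

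**Figure D1:**
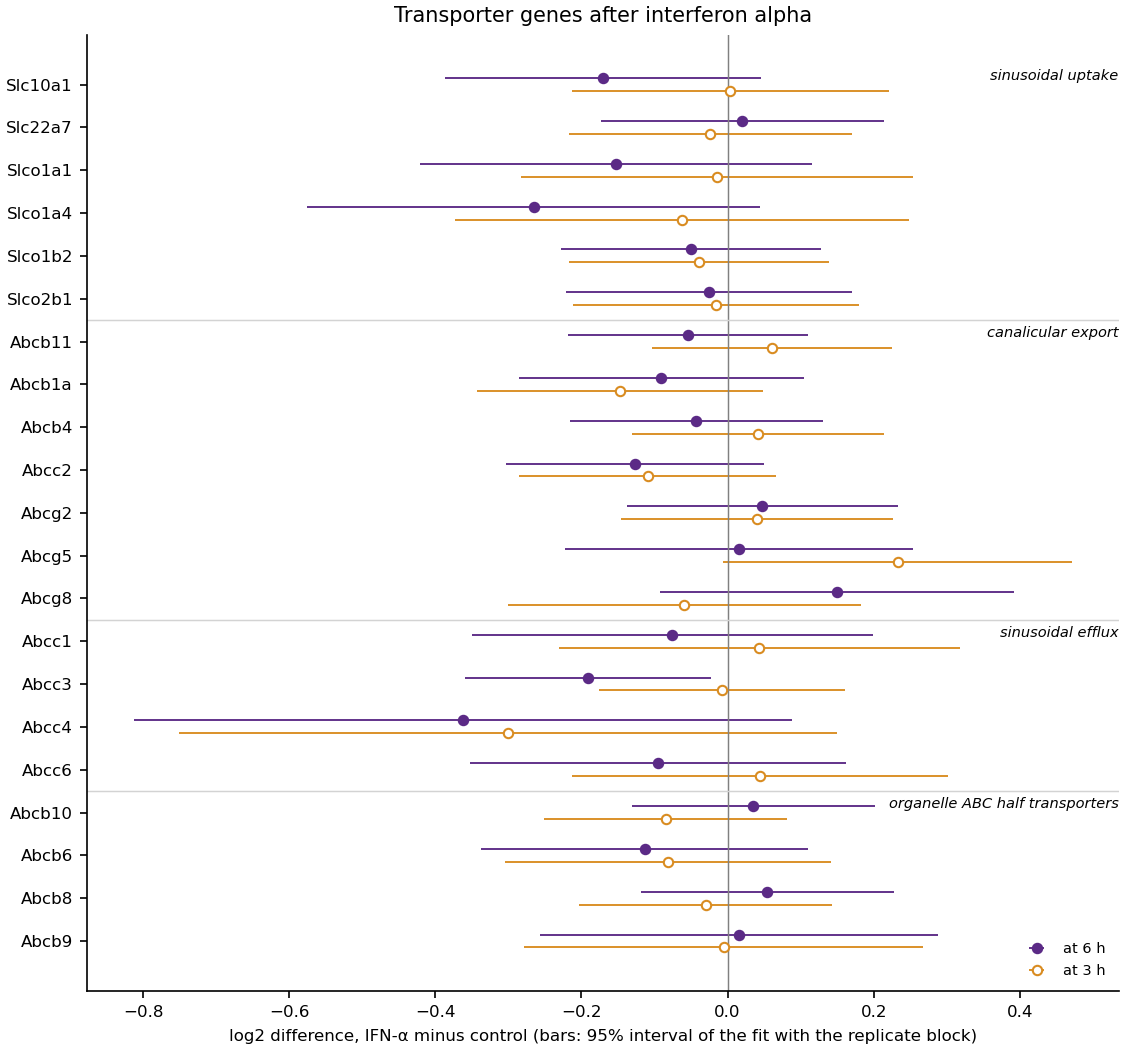
Each point is the log2 difference of interferon alpha minus untreated culture for 1 gene, at 6 h (filled) or at 3 h (open), with the 95% interval of the fit with the replicate block. Genes run down the page by role, and the intervals include 0 for all 21 genes except that of Abcc3 at 6 h, whose adjusted p was 0.529.

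The next genes are members above the median that were not called but were named for the size of their difference at 6 h or 3 h. Abcc4, which sends bile acids and nucleotides back into the blood, had 5.42, 5.86 and 6.65 with interferon alpha at 6 h, against 5.46, 6.45 and 7.10 without it, and 5.57, 6.46 and 6.18 with interferon alpha at 3 h, against 5.99, 6.62 and 6.50. In each of the 6 pairs of equal number and time the interferon alpha array was the lower one, although the ranges overlapped at both times. The differences were -0.36 ± 0.20 at 6 h and -0.30 ± 0.20 at 3 h (SE of the blocked fit), with blocked adjusted p = 0.695 and 0.825. Other member probe sets also kept 1 sign in all 6 pairs. The brighter one of Abcb1a, that of Slc10a3 and a dimmer one of Slco2b1 were lower, and a dimmer one of Abcc9 was higher. The second probe set of Abcb1a was higher in 3 of the 6 pairs. How often 1 sign in all 6 pairs occurs over all probe sets was not counted.

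Abcg1, a cholesterol exporter known best from macrophages, had 5.98, 6.88 and 5.20 with interferon alpha at 6 h, against 5.57, 4.96 and 4.94 without it. Replicate 2 stood apart, with a difference of 1.92 beside 0.41 and 0.26, and the fitted value was 0.86 ± 0.30 (blocked adjusted p = 0.42). Without replicate 2 the blocked value was 0.34, and the gene's other 2 probe sets gave 0.07 and 0.09. Slc22a4, a carrier of ergothioneine and carnitine, differed by -0.23 ± 0.08 at 6 h (blocked adjusted p = 0.469). Others named by the same rule differed at 3 h by 0.17 for Abcc5 and 0.16 for Abcg4, and -0.17 for Slc10a7 and -0.16 for Slc10a3, while at 6 h Slc10a7 had 0.10 and Slc22a17 had 0.08, each without a call. Below the median, Slco1a3, an organic anion carrier with a mean below the lower quartile, differed by -0.21 at 6 h and -0.32 at 3 h and was the lower one in all 6 pairs (blocked adjusted p = 0.636 and 0.566), while its dimmer probe set gave -0.06 and -0.01. Abcg3l1 differed by 0.28 at 6 h and -0.01 at 3 h (0.563 and 0.994). Both were chosen after their values were seen.

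Between 3 h and 6 h the transporters moved more, in both cultures. The fit without the block called 1 of the 73 probe sets in interferon alpha culture, where 0.387% of all were called, and 0 in untreated culture, where 0.19% were. In untreated culture 5 members had an unadjusted p under 0.05, against 10.1% of all probe sets, and these were both probe sets of Slco1b2 and those of Abcb4, Abcc2 and Abcc3. With the block it called 8 of 73 in interferon alpha culture, or 11.0% against 9.68% of all, and 6 of 73 in untreated culture, or 8.22% against 8.15%. In interferon alpha culture 3 of the 8 were higher at 6 h (4.78% of all were) and 5 lower (4.9% of all). In untreated culture 3 of the 6 were higher (3.33% of all) and 3 lower (4.82% of all). The members' share was close to that of all probe sets, so the counts show nothing particular to transporters. In bulk RNA fewer cells of a type and less RNA per cell cannot be told apart.

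Slco1b2, the liver-specific carrier for bile acids, bilirubin and statins, fell with time in both cultures. In interferon alpha culture it had 9.66, 9.29 and 9.37 at 6 h, against 10.18, 9.95 and 10.20 at 3 h. Untreated culture gave 9.56, 9.42 and 9.49 at 6 h, against 10.21, 9.99 and 10.26 at 3 h. All 6 arrays at 6 h lay below all 6 arrays at 3 h, and the 6 h minus 3 h difference was below 0 for each of the 3 replicate numbers in either culture. The fitted difference was -0.67 ± 0.08 in interferon alpha culture and -0.66 ± 0.08 in untreated culture (SE of the blocked fit), a 1.59-fold and a 1.58-fold lower signal at 6 h. Adjusted p was 0.00115 and 0.00151 with the block, and 0.0423 and 0.0582 without it. The unblocked call in interferon alpha culture held when interferon alpha replicate 1 at 6 h was left out, and was lost without any other of the 12 arrays (adjusted p of up to 0.165). The gene's second probe set gave -0.77 and -0.70, with blocked adjusted p = 0.00217 and 0.00424.

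**Figure D2:**
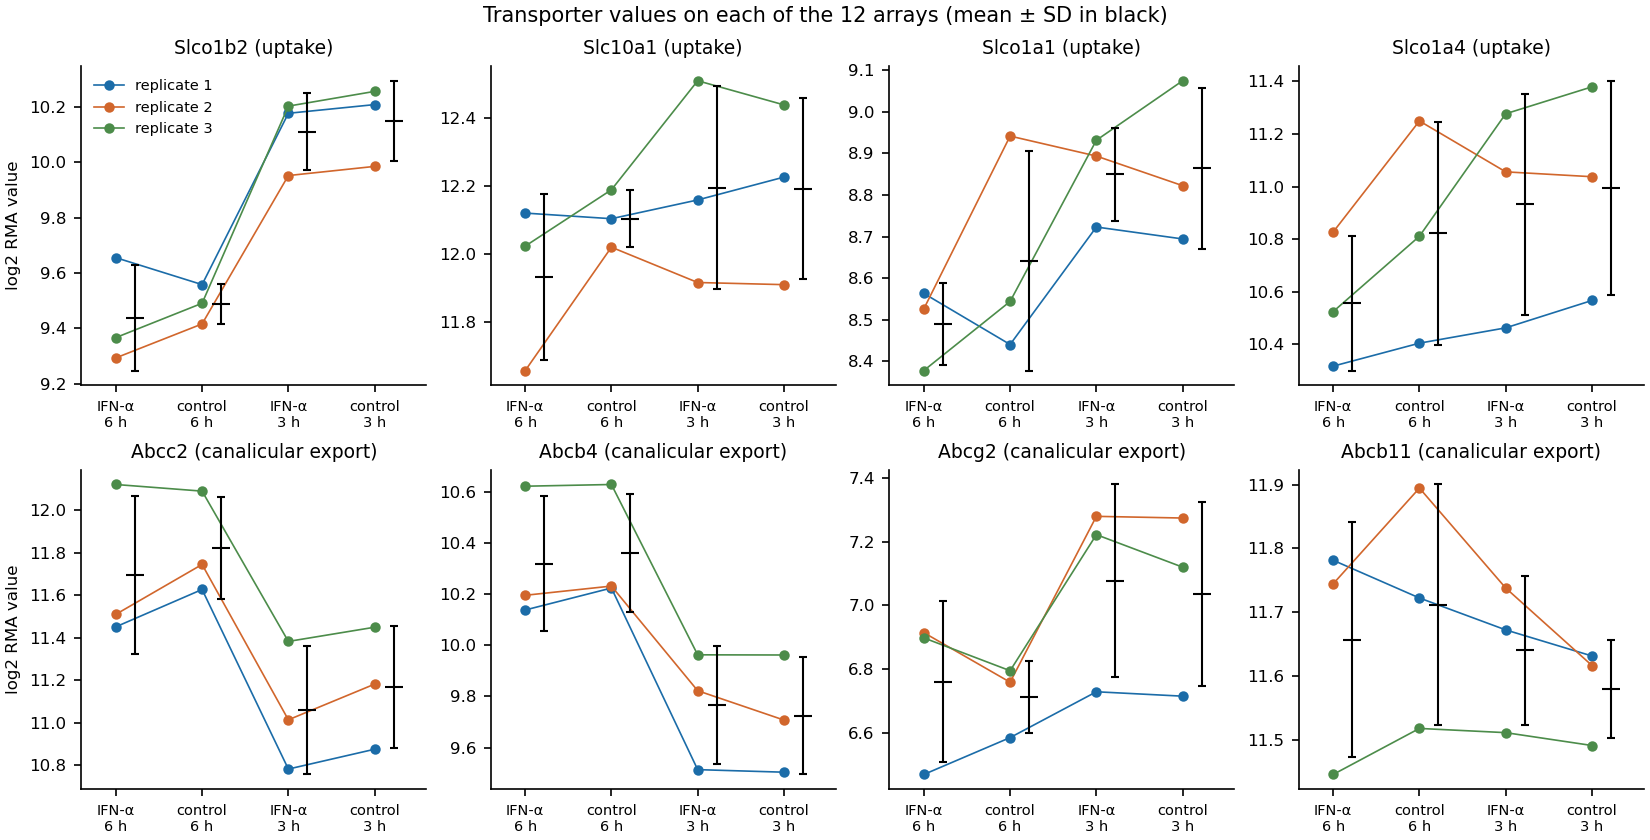
Each panel shows the log2 RMA value of 1 gene (vertical axis, own scale) on the 12 arrays, in the order interferon alpha 6 h, untreated 6 h, interferon alpha 3 h and untreated 3 h, with lines joining arrays of equal replicate number and black bars for mean ± SD of 3 arrays. Slco1b2 is lower and Abcc2 and Abcb4 are higher at 6 h than at 3 h. Most neighbouring interferon alpha and untreated values lie close together. At 6 h replicate 2 is an exception, with a difference of -0.36 in Slc10a1, -0.42 in Slco1a1 and -0.42 in Slco1a4.

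The other 5 uptake genes did not pass the test over time in either culture by either fit. Slco1a4 differed by -0.38 ± 0.14 in interferon alpha culture and -0.17 ± 0.14 in untreated culture, and Slco1a1 by -0.36 ± 0.12 and -0.22 ± 0.12. Slc22a7 gave -0.24 ± 0.09 and -0.28 ± 0.09, all with blocked adjusted p of 0.0754 or more. Slc10a1 gave -0.26 ± 0.10 and -0.09 ± 0.10. The remaining one, Slco2b1, a carrier of steroid sulphates, gave 0.06 ± 0.09 and 0.07 ± 0.09, while its second probe set gave -0.14 ± 0.07 and -0.07 ± 0.07, also without a call. In the order of RefSeq genes Slco1b2 is followed directly by Slco1a4 and Slco1a1 on chromosome 4, and within that run Slco1b2 alone passed the test, a contrast that was not itself tested.

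On the canalicular side, Abcc2 and Abcb4 rose and Abcg2 fell between 3 h and 6 h in both cultures in the blocked fit. Abcc2 had 11.45, 11.51 and 12.12 with interferon alpha at 6 h, against 10.78, 11.01 and 11.38 at 3 h, and in untreated culture 11.63, 11.74 and 12.09 at 6 h, against 10.87, 11.18 and 11.45 at 3 h. The groups did not overlap in either culture. The difference was 0.64 ± 0.08 with interferon alpha and 0.65 ± 0.08 without it, with adjusted p = 0.00138 and 0.00156 with the block and 0.298 and 0.324 without it.

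Abcb4, the phospholipid floppase, had 10.14, 10.20 and 10.62 with interferon alpha at 6 h, against 9.51, 9.82 and 9.96 at 3 h. Untreated culture gave 10.22, 10.23 and 10.63 at 6 h, against 9.50, 9.71 and 9.96 at 3 h. Again the groups stayed apart, and replicate 3 was the highest array in all 4 of them. The difference was 0.55 ± 0.08 with interferon alpha and 0.64 ± 0.08 without it (blocked adjusted p = 0.00224 and 0.00156, unblocked 0.247 and 0.222).

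Abcg2, an exporter of sulphated and drug-like substrates, had 6.47, 6.91 and 6.90 with interferon alpha at 6 h, against 6.73, 7.28 and 7.22 at 3 h. Without interferon alpha it had 6.59, 6.76 and 6.80 at 6 h, against 6.72, 7.27 and 7.12 at 3 h. The ranges overlapped, because replicate 1 was low in every group, but each number was lower at 6 h than at 3 h. The difference was -0.32 ± 0.08 in both cultures (blocked adjusted p = 0.0386 and 0.0397, unblocked 0.64 and 0.625).

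The calls differed in how far they rested on single replicate numbers. With the block and without any 1 replicate number, Slco1b2 and Abcc2 kept an adjusted p of at most 0.0362 in both cultures. Abcb4 kept at most 0.0414 in untreated culture but reached 0.0607 in interferon alpha culture without replicate 3. Abcg2 lost the call without each number in turn, with adjusted p from 0.067 to 0.304.

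Abcb1a, a multidrug efflux pump, rose in interferon alpha culture by the blocked fit alone (0.32 ± 0.09, adjusted p = 0.0456) and differed by 0.26 ± 0.09 in untreated culture (adjusted p = 0.103), a gap between cultures of 0.06 that was not called (adjusted p = 1.00). Left-out numbers ended that call too, with adjusted p from 0.0691 to 0.292, and the gene's second probe set gave 0.18 with interferon alpha and 0.20 without it (adjusted p = 0.329 and 0.269). Abcb11 gave 0.02 ± 0.07 with interferon alpha and 0.13 ± 0.07 without it, Abcg5 gave -0.29 ± 0.11 and -0.07 ± 0.11, and Abcg8 gave 0.01 ± 0.11 and -0.20 ± 0.11, none of which passed.

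Promoter sequence was looked at for the 4 genes called over time in both cultures, to show what lies just upstream of carriers that moved in opposite directions. Each is the RefSeq sequence of build GRCr8 from 250 bases before to 50 bases after the annotated start. Capitals mark matches, on either strand, to the hexamer GTTAAT, part of the site of the liver factor HNF1, and to AGGTCA, the hexamer bound by nuclear receptors. No match overlaps another in these 4 windows.
Slco1b2 (chr4:176282334-176282633, plus strand): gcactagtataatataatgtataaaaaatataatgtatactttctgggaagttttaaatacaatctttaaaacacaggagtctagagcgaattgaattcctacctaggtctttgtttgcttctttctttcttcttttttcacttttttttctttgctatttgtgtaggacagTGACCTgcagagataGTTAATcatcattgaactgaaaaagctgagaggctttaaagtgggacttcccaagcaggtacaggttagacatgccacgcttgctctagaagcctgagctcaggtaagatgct
Abcc2 (chr1:252613625-252613924, plus strand): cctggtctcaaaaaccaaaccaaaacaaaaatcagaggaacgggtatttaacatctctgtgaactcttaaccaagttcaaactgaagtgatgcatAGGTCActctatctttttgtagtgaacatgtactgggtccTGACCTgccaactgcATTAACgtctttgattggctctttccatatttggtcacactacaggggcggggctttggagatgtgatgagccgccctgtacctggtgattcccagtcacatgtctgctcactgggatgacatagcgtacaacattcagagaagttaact
Abcb4 (chr4:26164096-26164395, minus strand): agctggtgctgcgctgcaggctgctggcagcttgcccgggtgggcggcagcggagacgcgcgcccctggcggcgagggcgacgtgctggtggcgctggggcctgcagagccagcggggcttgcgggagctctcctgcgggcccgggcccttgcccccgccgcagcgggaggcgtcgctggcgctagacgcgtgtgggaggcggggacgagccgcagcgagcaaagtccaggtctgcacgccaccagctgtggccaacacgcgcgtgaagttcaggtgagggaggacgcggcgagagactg
Abcg2 (chr4:89075224-89075523, plus strand): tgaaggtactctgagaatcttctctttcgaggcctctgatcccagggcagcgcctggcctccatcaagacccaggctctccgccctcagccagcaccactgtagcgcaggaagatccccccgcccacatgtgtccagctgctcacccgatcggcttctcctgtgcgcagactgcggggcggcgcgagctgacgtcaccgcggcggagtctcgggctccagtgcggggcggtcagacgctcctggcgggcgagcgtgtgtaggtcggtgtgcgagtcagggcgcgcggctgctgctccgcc

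Slco1b2 and Abcc2, which moved in opposite directions, both hold GTTAAT and AGGTCA in this window, and neither motif occurs in the windows of Abcb4 and Abcg2. Base composition differed as well, with 36.3% G and C for Slco1b2, 44.7% for Abcc2, 74.3% for Abcb4 and 68.0% for Abcg2, against a median of 51.7% over all promoters. Among the 48 member genes with an entry, GTTAAT occurred in 14.6% and AGGTCA in 20.8%, against 7.45% and 16.2% of all 33469 promoters. The core of the interferon-stimulated response element, GAAA, any 2 bases and GAAA on either strand, occurred in 1 member promoter, that of Slco1a6, or 2.08% against 3.92% of all. A match describes the letters alone.

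The side-by-side picture of uptake and canalicular export used the plain mean of the 6 uptake genes and of the 7 canalicular genes on each array. Abcg8 (mean 3.705) and Abcg5 (mean 5.01) enter the export mean at equal weight, though they lie below the lower quartile and the median of probe set means. All 6 uptake genes lie above that median. The uptake mean was lower at 6 h than at 3 h for every replicate number in both cultures, by -0.31 ± 0.19 with interferon alpha and -0.23 ± 0.20 without it (mean ± SD of 3 within-number differences). The export mean was higher for every number, by 0.13 ± 0.08 and 0.15 ± 0.10. Uptake minus export changed by -0.36, -0.32 and -0.64 for replicates 1 to 3 with interferon alpha and by -0.46, -0.13 and -0.56 without it, so that all 6 changes were below 0. Their mean was -0.44 ± 0.18 with interferon alpha and -0.38 ± 0.23 without it.

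These means hide mixed genes. Of the uptake genes, 5 of 6 in interferon alpha culture and 2 of 6 in untreated culture were lower at 6 h for all 3 numbers, and 1 of 6 passed the test. Of the export genes, 3 of 7 and 4 of 7 were higher for all 3 numbers. Those lower for all 3 were 2 of 7 and 1 of 7. The share of all probe sets with 1 sign for all 3 numbers was not counted. The export mean rose mainly through Abcc2 and Abcb4, and Abcb1a added smaller rises (0.32 with interferon alpha and 0.26 without it). Among the uptake genes Slco1b2 had the widest fall (-0.67 and -0.66). The median change was -0.31 for uptake and 0.02 for export with interferon alpha, and -0.20 and 0.13 without it, against 0.00 and 0.01 over all probe sets. No test is given for these lists, since their genes were chosen with results of these data known.

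Interferon alpha minus untreated culture changed uptake minus export by -0.09 ± 0.13 at 6 h and -0.03 ± 0.04 at 3 h (SD of 3 within-number differences). At 6 h the uptake mean differed by 0.01, -0.19 and -0.15 for replicates 1 to 3, so replicate 1 did not share the sign of the others. The export mean differed by -0.04, -0.01 and 0.00.

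**Figure D3:**
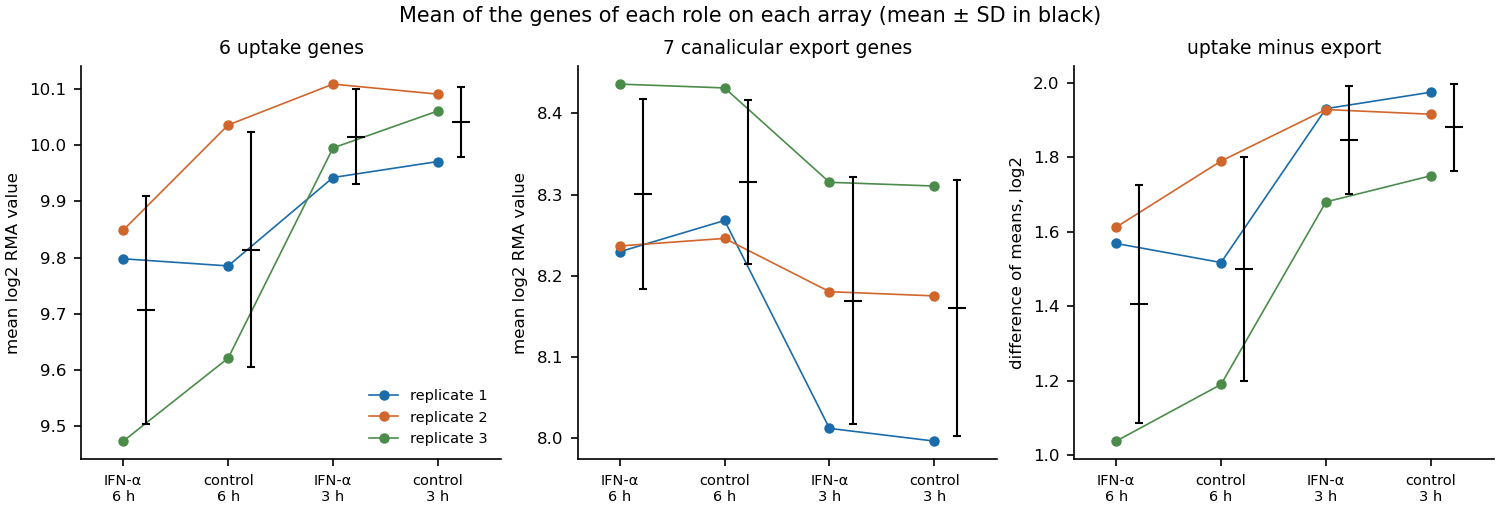
The panels show the mean log2 RMA value of the 6 uptake genes, of the 7 canalicular export genes and their difference (vertical axes) on each array, with lines joining arrays of equal replicate number and black bars for mean ± SD of 3 arrays. From 3 h (right) to 6 h (left) uptake is lower and export higher for all 3 numbers. Interferon alpha and untreated arrays of 1 number lie close together, except for uptake at 6 h in replicates 2 and 3 (-0.19 and -0.15).

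Among the pumps facing the blood, Abcc3, which exports glucuronides, rose in untreated culture in the blocked fit. It had 9.69, 9.72 and 9.96 with interferon alpha at 6 h, against 9.55, 9.54 and 9.65 at 3 h, and in untreated culture 9.93, 9.94 and 10.08 at 6 h, against 9.45, 9.68 and 9.63 at 3 h. The groups did not overlap in either culture, and the untreated arrays at 6 h were the highest of their number. The difference was 0.21 ± 0.08 with interferon alpha and 0.39 ± 0.08 without it (blocked adjusted p = 0.128 and 0.012, unblocked 0.503 and 0.166). Without 1 replicate number the untreated call was lost, with adjusted p from 0.057 to 0.129.

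Abcc1, Abcc4 and Abcc6 did not pass over time. Abcc1 differed by 0.20 ± 0.12 with interferon alpha and 0.32 ± 0.12 without it, Abcc6 by -0.30 ± 0.12 and -0.16 ± 0.12, and Abcc4 by -0.09 ± 0.20 and -0.03 ± 0.20. In Abcc4 replicate 3 ran against the others, at 0.47 and 0.60 where replicates 1 and 2 gave values below 0.

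The Abcb proteins of mitochondria and lysosomes take part in haem, iron and peptide handling. Abcb6, a porphyrin transporter of mitochondria and other membranes, had 8.34, 8.63 and 7.56 with interferon alpha at 6 h, against 8.60, 8.88 and 8.20 at 3 h. It fell in that culture in the blocked fit (-0.38 ± 0.10, adjusted p = 0.0376) and differed by -0.35 ± 0.10 in untreated culture (adjusted p = 0.0597). Replicate 3 had the widest differences, -0.64 and -0.57. The call was lost without each number in turn, with adjusted p = 0.102, 0.126 and 0.207 without replicate 1, 2 and 3. Abcb8, Abcb9 and Abcb10 lay between -0.11 and 0.15 in both cultures and did not pass.

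**Figure D4:**
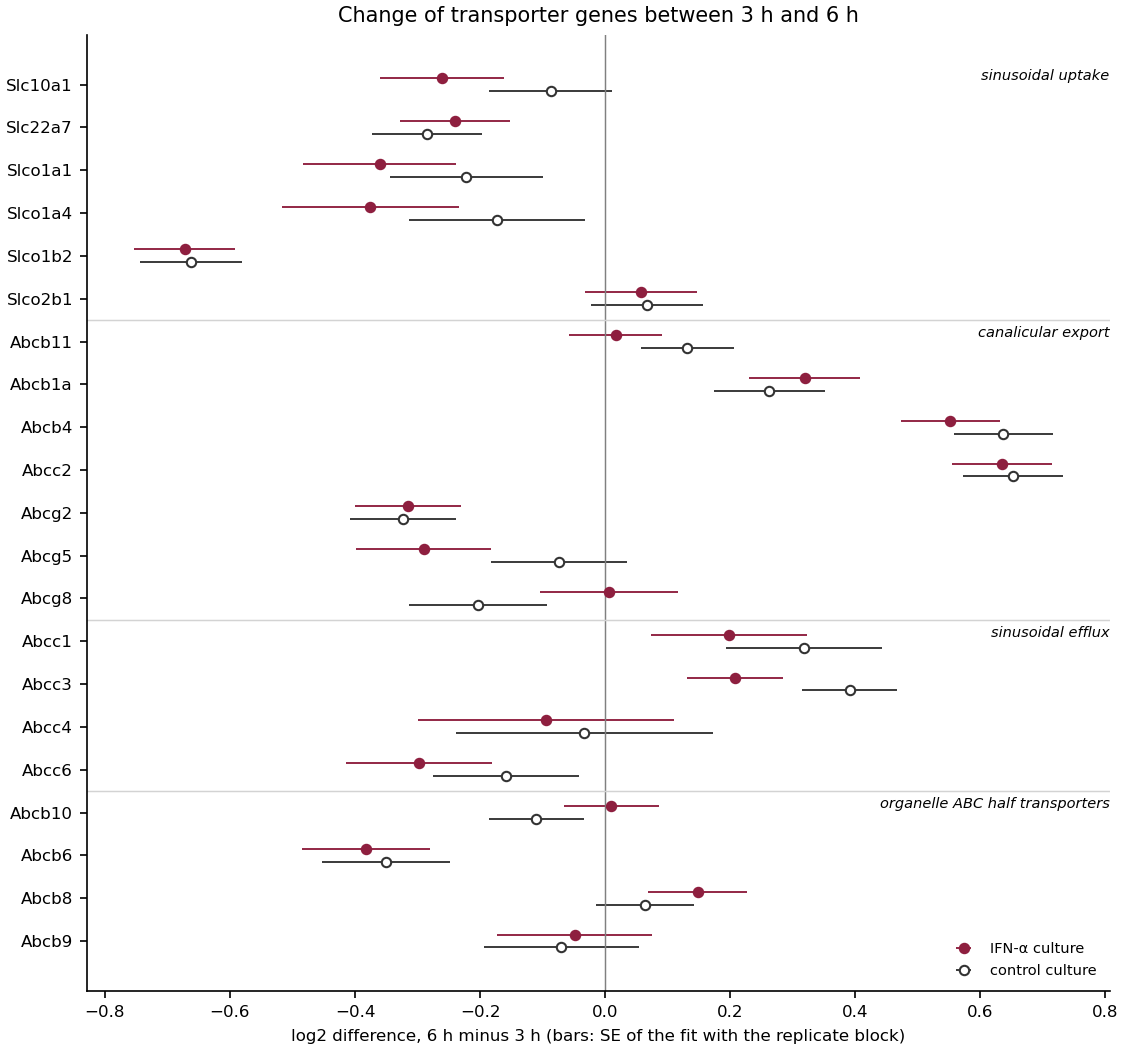
Each point is the log2 difference of 6 h minus 3 h for 1 gene in interferon alpha culture (filled) or untreated culture (open), with the SE of the fit with the replicate block, and genes run down the page by role. Slco1b2 lies near -0.67 and Abcc2 and Abcb4 between 0.55 and 0.65 in both cultures, and the points of both cultures lie side by side for most of the 21 genes.

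Of the 35 member genes outside these roles, 1 passed over time, in interferon alpha culture by the blocked fit. That fit called 9.68% of all probe sets there and 8.15% in untreated culture. Slc22a21, known as a carnitine carrier in mouse, is among the genes below the lower quartile, and had 3.70, 3.81 and 3.52 with interferon alpha at 6 h, against 3.79, 4.22 and 3.91 at 3 h (-0.30 ± 0.08, blocked adjusted p = 0.0463). Its untreated difference was -0.12 ± 0.08 (adjusted p = 0.458). The call held without replicate 1 (0.0492) and was lost without replicate 2 (0.301) or replicate 3 (0.317). The overlap of its ranges and its low signal set it apart from Slco1b2.

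Slc22a23, an orphan carrier, showed the widest negative difference among these 35 genes, -0.57 ± 0.22 with interferon alpha and -0.46 ± 0.22 without it, without a call (blocked adjusted p = 0.153 and 0.256). Replicates 1 and 2 gave -0.75 and -0.96 with interferon alpha and -0.85 and -0.83 without it, while replicate 3 gave 0.01 and 0.29. Without replicate 3 it was called, with adjusted p = 0.0222 and 0.0296. Its second probe set gave 0.05 with interferon alpha and -0.11 without it. Slco2a1, a prostaglandin carrier, gave -0.23 ± 0.07 and -0.26 ± 0.07 on its brighter probe set (adjusted p = 0.0886 and 0.0618) and 0.13 and 0.00 on the other.

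Replicate number accounted for more of the spread of many transporters than time or interferon alpha. Over the 33 genes above the median, the median share of the sum of squares was 60.2% for replicate number, 14.9% for time and 1.51% for interferon alpha, against 44.2%, 13.5% and 2.93% over all probe sets above that median. It was the largest share in 27 of the 56 genes, the remainder in 21, time in 6, interferon alpha in 1 and the interaction in 1. Replicate number has more degrees of freedom than time or interferon alpha, which by itself raises its share. The count of largest shares was not made over all probe sets. These shares are a description of 12 arrays.

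Slco2b1 is the clearest case in the uptake group, with 97.8% of its sum of squares between replicate numbers. It had 8.60, 8.82 and 7.37 with interferon alpha at 6 h, against 8.62, 8.80 and 7.44 without it, and at 3 h 8.49, 8.63 and 7.49 with interferon alpha, against 8.46, 8.61 and 7.59. Replicate 3 was lowest in all 4 groups. Slc22a18, which encodes an organic cation carrier-like protein, followed the same order at 11.26, 11.73 and 10.58 with interferon alpha at 6 h, against 11.23, 11.67 and 10.65 without it, and its number means spanned 1.00. Abcc6, whose loss causes ectopic mineralisation in humans, spanned 1.38 between replicates 2 and 3, and Abcb8 0.674.

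Other members ran the opposite way. Abcb1a was highest in replicate 3, where it had 9.50 with interferon alpha at 6 h, against 9.64 without it, and lowest in replicate 1, at 8.76 against 8.83. Abcb10 did likewise, and Slco3a1 was high in replicate 1 alone, at 6.00 beside 4.91 and 4.90 with interferon alpha at 6 h. Summed macrophage markers also differed by number, with 450 to 555 in replicate 1, 163 to 187 in replicate 2 and 293 to 360 in replicate 3. Ductal markers summed to between 1800 and 2060, between 3070 and 3440, and between 2460 and 3100, which mainly reflects Epcam. Erythroid markers summed to between 231 and 296, between 166 and 196, and between 176 and 194. Endothelial markers summed to between 105 and 142, between 84.1 and 87.2, and between 80.1 and 90.4. Hepatocyte markers summed to between 116000 and 119000, between 121000 and 122000, and between 109000 and 115000. The part of these cell types in the differences was not tested.

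**Figure D5:**
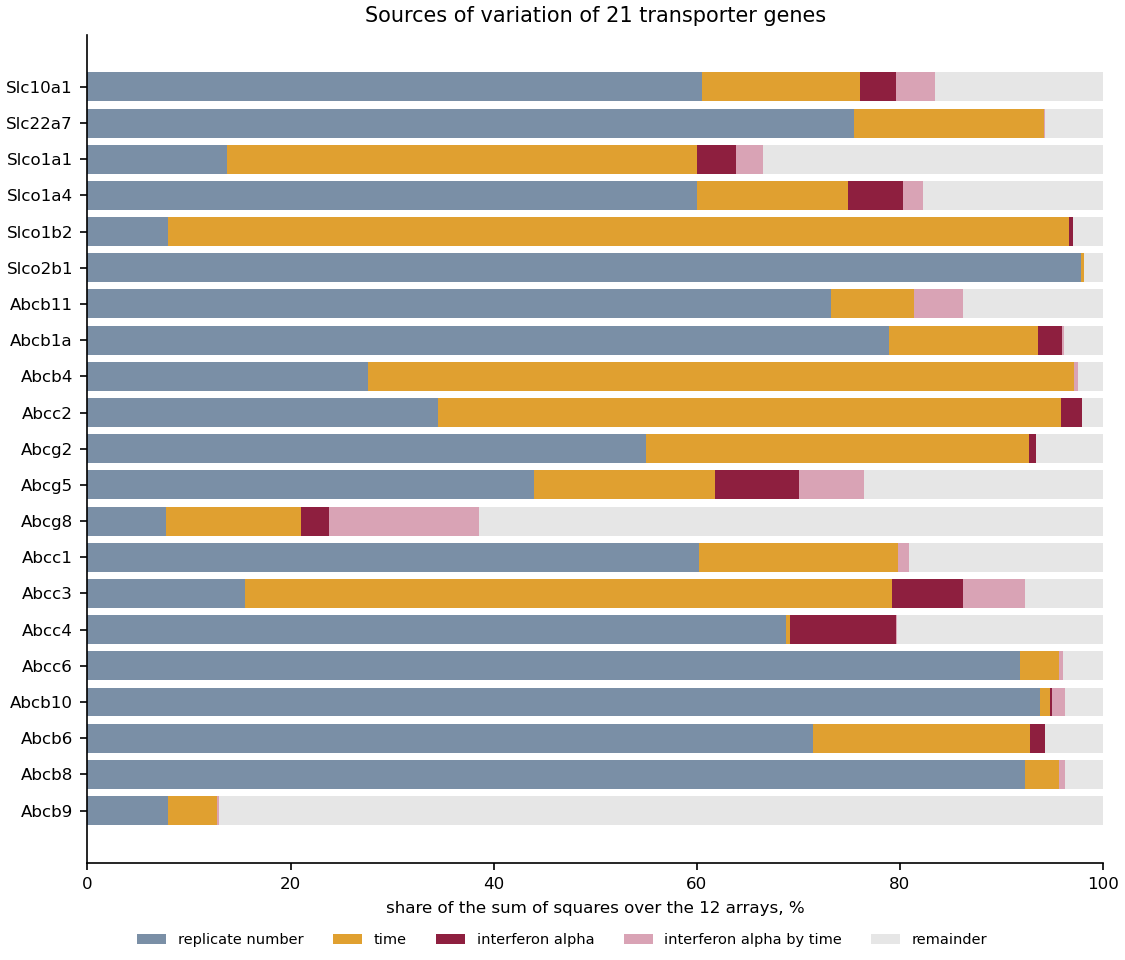
Bars show the share of the sum of squares over the 12 arrays, in %, that falls to replicate number, time, interferon alpha, their interaction and the remainder, for the 21 genes of the 4 roles. Replicate number takes 97.8% for Slco2b1 and time takes 88.7% for Slco1b2, and the share of interferon alpha is at most 10.5% (Abcc4).

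Of 17 measured regulators of transporter genes, 0 were called for interferon alpha. Over time the blocked fit called 3 higher and 2 lower with interferon alpha, and 1 higher and 1 lower without it, where 9.68% and 8.15% of all probe sets were called. Foxa2, a liver forkhead factor, rose by 1.09 ± 0.16 with interferon alpha and 0.81 ± 0.16 without it (blocked adjusted p = 0.00257 and 0.012), and Nr1h3, the oxysterol receptor, changed by -0.60 ± 0.09 and -0.65 ± 0.09 (0.00224 and 0.00207). Nr1h4, the bile acid receptor, changed by -0.61 ± 0.17 with interferon alpha (adjusted p = 0.0466) and differed by -0.53 ± 0.17 without it (0.0889). Cebpa and Cebpb, factors of hepatocyte and acute phase genes, rose between 3 h and 6 h in interferon alpha culture by 0.42 ± 0.10 and 0.49 ± 0.09 (0.0276 and 0.00574). In untreated culture they differed by 0.28 ± 0.10 and 0.26 ± 0.09 (0.128 and 0.0922). Interferon alpha minus untreated culture was -0.18 at 6 h and -0.32 at 3 h for Cebpa, and 0.05 and -0.18 for Cebpb. None of these passed without the block.

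Of 19 measured partners of transport outside the families, the blocked fit called 2 higher and 5 lower over time with interferon alpha, and 1 higher and 5 lower without it, against 4.78% higher and 4.9% lower of all probe sets with interferon alpha and 3.33% and 4.82% without it. Abcd3, a peroxisomal transporter, changed by -0.68 ± 0.08 and -0.70 ± 0.08, Cgn, a tight junction protein, by -0.69 ± 0.13 and -0.73 ± 0.13, and Pdzk1, a scaffold of apical carriers, by -0.50 ± 0.11 and -0.42 ± 0.11. Slc29a1, a nucleoside carrier, changed by -0.59 ± 0.08 and -0.42 ± 0.08, and Tjp1, another junction protein, rose by 0.60 ± 0.09 and 0.46 ± 0.09 (blocked adjusted p of at most 0.0367 for all 5 genes). Slc16a1, a lactate carrier, changed by -0.25 ± 0.07 with interferon alpha and differed by -0.25 ± 0.07 without it (0.0439 and 0.0512). Nherf1, a scaffold of apical proteins, differed by -0.30 ± 0.10 with interferon alpha and changed by -0.44 ± 0.10 without it (0.0796 and 0.0192). The seventh called with interferon alpha was Ezr, which rose by 0.63 ± 0.13 (0.0138) and differed by -0.35 ± 0.13 without it (0.148). None of these partners passed over time without the block.

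Ezr, which links apical membrane proteins to actin, was the 1 partner called for interferon alpha, by the blocked fit. It had 8.61, 9.32 and 9.49 with interferon alpha at 6 h, against 7.97, 7.85 and 8.37 without it, and at 3 h 8.06, 8.63 and 8.85 with interferon alpha, against 8.18, 8.27 and 8.79. The groups did not overlap at 6 h and did at 3 h. The difference at 6 h was 1.08 ± 0.13 (adjusted p = 0.00141 with the block and 0.274 without it), against 0.10 ± 0.13 at 3 h. The gap of 0.98 between the times was not called (adjusted p = 0.462 with the block and 1.00 without it).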

How the data were processed

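Total RNA of 12 cultures was labelled with biotin for Affymetrix arrays, according to the labels. The authors deposited 1 log2 value for each probe set and array, computed by RMA (package affy, R 2.10.0) according to the submitters' processing notes. RMA gives all arrays the same distribution, and a global shift of a sample would be lost. The probe set definitions are not given in the sources used here. Array medians ran from 5.16 to 5.21.

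Groups came from the titles in the labels. The 57 control probe sets were left out and 31042 were tested with limma 3.58.1 in R 4.3.3, by lmFit and eBayes, in 1 fit of 4 groups with 8 residual degrees of freedom. There were 6 comparisons, two-sided, each adjusted by Benjamini-Hochberg over all probe sets and called under 0.05. Checked on deviations from group means, arrays of the same number correlated at 0.651 to 0.829 within a time (6 pairs) and 0.479 to 0.736 across times (12 pairs), those of different numbers at -0.562 to -0.0747 (36 pairs). Deviations sum to 0 within a group, so values below 0 for different numbers follow from those above 0 for equal numbers and add no separate evidence. The numbers were therefore taken to pair the arrays, a hint from the data and not from the labels, and the fit with the number as a block is given beside the first. The code was tested on simulated data.

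Summed marker levels are sums of values taken back to the linear scale. Members and lists were chosen with earlier results of these data known. Named are all measured genes of the 4 role lists, every member called in any comparison by either fit, the 3 largest rises and falls per comparison among member genes above the median, and listed regulators and partners called by either fit. Promoters came from RefSeq (GRCr8), where 48 of 56 member genes had an entry. All 73 symbols were the same in RefSeq. Other settings tried were the variance model, a filter on low values, the arrays in the fit, centring, repeated quantile normalization and left-out arrays. Plots and summaries used Python 3.11.15 with pandas 2.3.3 and matplotlib 3.10.9.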

Additional observations from a re-analysis of the deposited data

How the results depend on the processing

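For the 4 comparisons that involve interferon alpha against untreated culture, 0 member probe sets were called under every setting run, with and without the replicate block. Over time the replicate block, which follows the pairing of arrays by number, moved the count to 8 in interferon alpha culture, against 1 without it, and to 6 in untreated culture, against 0. Leaving out 1 replicate number from the blocked fit gave 6, 4 and 3 (without replicate 1, 2 and 3) with interferon alpha, and 4 each without it. In the unblocked fit the count with interferon alpha was 0 with limma-trend, 0 with only the arrays compared, 2 with the filter on low values, and 0 to 1 with single arrays left out. Where arrays were left out the counts rest on fewer arrays, and the cause of the lower counts was not tested for any setting. No called value reversed. Uptake minus export stayed within 1 SD (0.238) of its reported change under each setting run. That margin is wider than the interferon alpha changes of -0.09 at 6 h and -0.03 at 3 h. It therefore cannot show whether their sign held. For the time changes of -0.44 with interferon alpha and -0.38 without it, the margin leaves room for a much smaller change. A fit on only the arrays compared was not run for the difference and the average, which use all 12 arrays, nor was a block within each time for the time comparisons. Precision is limited by 3 arrays per group.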
